A study of Homo sapiens with 3 samples.

Results

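The SLC25 family of mitochondrial carriers was examined in a CRISPR knockout screen of metabolic genes. Its members were taken as every gene whose symbol in the screen's guide tables begins with SLC25A, with SLC25A1, the citrate carrier, left out. This rule used no measured value and gave 46 carriers of the 2978 genes in the library. The carriers were targeted by 457 single guide RNAs, 10 for each of 45 genes and 7 for SLC25A52. Of these guides, 443 had at least 100 counts before treatment and were scored, which left every carrier with between 7 and 10 guides and 34 carriers with all 10.

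SLC25 proteins are nuclear-encoded membrane proteins, most of them in the mitochondrial inner membrane, which is otherwise impermeable to charged metabolites. They exchange or import nucleotides, phosphate, keto acids, amino acids and cofactors, and so join the cytosol to oxidative phosphorylation, the malate-aspartate shuttle, one-carbon metabolism and heme and iron-sulfur cluster synthesis. They are built from repeats that each carry a signature sequence, and several have close relatives that move the same substrate, so that loss of a single gene need not remove the transport.

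MIA PaCa-2, an established human pancreatic ductal adenocarcinoma line, received a pooled guide library and was selected with puromycin. Cells sampled at day 0 without treatment gave the initial population, and the remainder were passaged for 14 days in DMSO, the solvent control, or in apilimod, which blocks PIKfyve, a lipid kinase of endosomes and lysosomes. The labels give 200 nM for the apilimod cells, but the methods of the study state another concentration, so the dose could not be settled here. Each group was 1 library from 1 pool of cells of 1 line, without replicates. A guide becomes rarer when the cells that carry it divide more slowly or are lost, and the counts cannot tell these apart. The comparisons ask which carriers the cells needed over 14 days, and whether that need differed under apilimod.

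Total counts were 24695476 for the initial population, 26276517 for DMSO and 25599416 for apilimod. The carriers' guides took 452304, 461815 and 434638 of these, with a median of 772, 737 and 717 counts per guide. For each guide, the log2 change from the initial population was computed from counts scaled to the library total, and a gene's score was the mean over its guides. The 487 scored intergenic control guides, which cut outside genes, had a median log2 change of 0.14 (SD 0.40) in DMSO and 0.22 (SD 0.73) in apilimod. Controls with 100 to 199 initial counts stood apart in apilimod, where these 20 guides had a median of 1.91, whereas the 22 carrier guides of that range had a median of 0.16. A gene was called when its guides differed from the control guides in an exact two-sided rank-sum test, adjusted over 2969 genes. The SD given with a score is the spread over guides, and the test compares libraries, since a single library shows no spread between cultures.

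After 14 days in DMSO, 14 of the 46 carriers were called lower and 0 higher, where 18.9% of all genes were called lower and 0.842% higher. Among the lowest scores were those of the S-adenosylmethionine carrier SLC25A26, the phosphate carrier SLC25A3, the NAD carrier SLC25A51 and the glutamate carrier SLC25A22, at ranks 151, 172, 197 and 205 from the lowest of 2969 genes. In apilimod, 18 carriers were called lower and 0 higher, where 29.0% of all genes were called lower and 0.236% higher. These 4 carriers were again among the lowest. The 2 arms share the initial library. Of the carriers, 12 were called lower in both arms, 2 in DMSO alone, 6 in apilimod alone and 26 in neither. This split was not counted over all genes, so it shows nothing particular to the carriers. A call in 1 arm alone does not show that the arms differed, which the direct comparison below addresses.

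The median score of the 46 carriers was -0.13 (SD 0.36 over genes) in DMSO, beside -0.03 over all genes, and -0.11 in apilimod, beside -0.04. At least 1 log2 unit below the control median lay 3 carriers in DMSO, among them SLC25A26 and SLC25A3, where 6.53% of all genes did. In apilimod 4 did so, SLC25A22 included, where 9.77% of all genes did. Most other calls rested on smaller shifts against intergenic guides, whose median lay above that of the genes. When the reference was every scored guide and not the controls alone, 4 carriers were called lower in DMSO, among them SLC25A3, SLC25A22 and SLC25A51, beside 7.65% of all genes. In apilimod 5 were called lower on that basis, among them SLC25A3, SLC25A10, SLC25A22 and SLC25A26, beside 7.71% of all genes. Every other call of a carrier reported here ended on that basis.

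**Figure D1:**
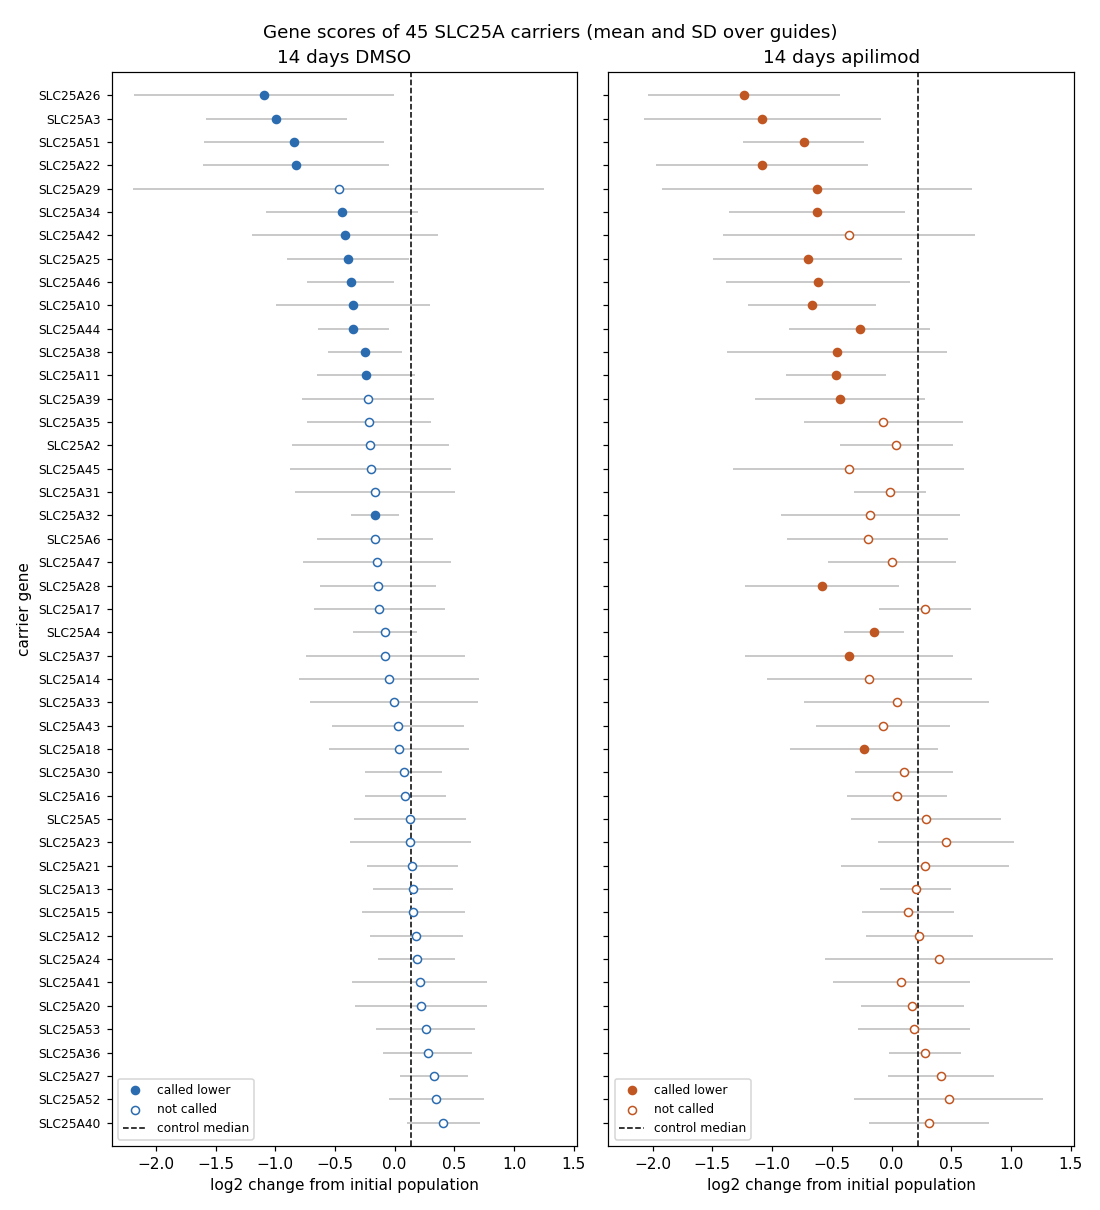
Gene scores of 45 carriers after 14 days in DMSO (left) and apilimod (right), as the log2 change from the initial population. Points are means and bars SDs over guides, filled points were called lower, and the dashed line is the control median. Carriers are ordered by the DMSO score, from -1.09 for SLC25A26 to 0.41 for SLC25A40, and no carrier was called higher.

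Among the 10 carriers of cofactors and of nucleotides other than the adenine nucleotides exchanged for energy, 5 were called lower in DMSO and 3 in apilimod. Over all genes 18.9% and 29.0% were called lower. SLC25A26 (chr3:66133610-66388116, plus strand, hg38) imports S-adenosylmethionine, the methyl donor, into the matrix. Together its 10 guides had 12130 counts initially, 8142 after DMSO and 6427 after apilimod, and the 95% Poisson interval of the DMSO sum, which covers counting error only, ran from 7966 to 8321. The guides spread widely in DMSO, from -2.77 to 0.48, with 7 of them at least 1 log2 unit below the control median and 2 above that median. In apilimod all 10 lay below the control median, between -2.46 and -0.35. The score was -1.09 ± 1.09 in DMSO (exact adjusted p = 0.00492) and -1.24 ± 0.80 in apilimod (exact adjusted p = 3.74e-09).

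SLC25A51 (chr9:37879400-37904353, minus strand), which brings NAD into the matrix, summed to 12460, 7361 and 7301 counts over its 8 scored guides. In DMSO the guides ran from -1.93 to 0.53 with 7 of the 8 below the control median, and in apilimod all 8 lay below it, between -1.25 and 0.18. The scores were -0.84 ± 0.75 (exact adjusted p = 0.000926) and -0.74 ± 0.51 (exact adjusted p = 0.000135).

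SLC25A42 and SLC25A32 of the cofactor group were called in DMSO alone. SLC25A42, a coenzyme A carrier, scored -0.42 ± 0.78 in DMSO (exact adjusted p = 0.0445) and -0.35 ± 1.06 in apilimod (exact adjusted p = 0.105). The DMSO mean was -0.25 without a guide of 161, 45 and 47 counts. Its DMSO call also ended under every other minimum of initial counts tried, with exact adjusted p between 0.0527 and 0.106 there. SLC25A32, which transports folate and flavin, summed to 8963, 8686 and 7699 counts, before scaling to library totals. Its guides were tightly grouped in DMSO, between -0.60 and 0.11 and all below the control median, for a score of -0.16 ± 0.20 (exact adjusted p = 0.0137). In apilimod they ran from -1.08 to 1.14 around -0.18 (exact adjusted p = 0.0588). The pyrimidine nucleotide carriers SLC25A33 and SLC25A36, the peroxisomal carrier SLC25A17, SLC25A16 and SLC25A52 were not called in either arm, with scores from -0.13 to 0.35 in DMSO and from 0.04 to 0.48 in apilimod.

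Among the 9 carriers of phosphate and adenine nucleotides, 2 were called lower in DMSO and 3 in apilimod, beside 18.9% and 29.0% of all genes. SLC25A3 (chr12:98593591-98606379, plus strand) imports phosphate for ATP synthesis. Its guides summed to 12169 counts initially, 7474 in DMSO and 6089 in apilimod. All 10 fell below the control median in DMSO, from -2.18 to -0.02, and 9 did in apilimod, while the remaining guide, at 139, 65 and 277 counts, reached 0.94. The scores were -0.99 ± 0.59 (exact adjusted p = 2.55e-08) and -1.08 ± 0.99 (exact adjusted p = 4.38e-05), and the apilimod mean without that guide was -1.31.

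SLC25A25, an ATP-magnesium/phosphate carrier, summed to 12028, 11973 and 10330 counts. Its guides ran from -1.45 to 0.22 in DMSO and from -1.95 to 0.18 in apilimod, where all 10 lay below the control median. The scores were -0.39 ± 0.51 (exact adjusted p = 0.00504) and -0.70 ± 0.79 (exact adjusted p = 0.000327). The adenine nucleotide translocase SLC25A4 was called in apilimod alone, with 12590, 12766 and 12279 counts and guides between -0.54 and 0.18, all within the central 95% of the control guides (-0.85 to 2.41). Its score of -0.15 ± 0.25 (exact adjusted p = 0.0136) was the smallest shift among the called carriers in that arm, and in DMSO it scored -0.08 (exact adjusted p = 0.157). SLC25A5, SLC25A6, SLC25A31, SLC25A23, SLC25A24 and SLC25A41 were not called in either arm, with scores from -0.17 to 0.21 in DMSO and from -0.20 to 0.46 in apilimod.

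The amino acid carriers numbered 9, of which 3 were called lower in DMSO and 5 in apilimod, beside 18.9% and 29.0% of all genes. SLC25A22 (chr11:790475-798281, minus strand), which imports glutamate, summed to 6781, 4418 and 3577 counts. All 10 guides lay below the control median in DMSO, from -2.68 to 0.09, and 9 in apilimod, from -2.83 to 0.24. The lowest guide was the same in both arms, with 542, 89 and 78 counts, and without it the scores of -0.82 ± 0.78 and -1.09 ± 0.89 became -0.62 and -0.89. The exact adjusted p was 9.36e-06 in DMSO and 7.08e-06 in apilimod.

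SLC25A44, a carrier of branched-chain amino acids, summed to 15986, 14474 and 14549 counts, with scores of -0.35 ± 0.30 (exact adjusted p = 0.000327) and -0.27 ± 0.59 (exact adjusted p = 0.0276). Its guides were closely spaced in DMSO, from -0.89 to 0.03, and wider in apilimod, from -1.35 to 0.50, where the mean was -0.15 without a guide of 623, 553 and 253 counts. SLC25A38, which brings glycine into the matrix for heme synthesis, summed to 17549, 16417 and 15006 counts. Its guides ran from -0.77 to 0.18 in DMSO and from -2.73 to 0.30 in apilimod, for scores of -0.25 ± 0.31 (exact adjusted p = 0.00734) and -0.46 ± 0.92 (exact adjusted p = 0.02). The apilimod mean became -0.20 without a guide of 442, 276 and 68 counts. The glutamate carrier SLC25A18 was called in apilimod alone, with 10692, 11249 and 9286 counts and guides from -1.05 to 1.34, at -0.23 ± 0.62 (exact adjusted p = 0.00441) beside 0.04 in DMSO.

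SLC25A29, a carrier of basic amino acids, showed how far 1 guide could move a score. Its eighth guide went from 404 counts to 11 in DMSO and 28 in apilimod, changes of -5.17 and -3.86, while the other 9 ran from -0.50 to 1.19 in DMSO and from -1.11 to 1.10 in apilimod. The DMSO score of -0.47 ± 1.72 was not called (exact adjusted p = 0.24) and became 0.05 without that guide. The apilimod score of -0.63 ± 1.30 was called (exact adjusted p = 0.00655) and became -0.27 without it. That call compares ranks, and 9 of the 10 guides lay below the control median in apilimod. The aspartate-glutamate carriers SLC25A12 and SLC25A13 of the malate-aspartate shuttle and the ornithine carriers SLC25A15 and SLC25A2 were not called in either arm, with scores from -0.20 to 0.18 in DMSO and from 0.04 to 0.23 in apilimod.

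**Figure D2:**
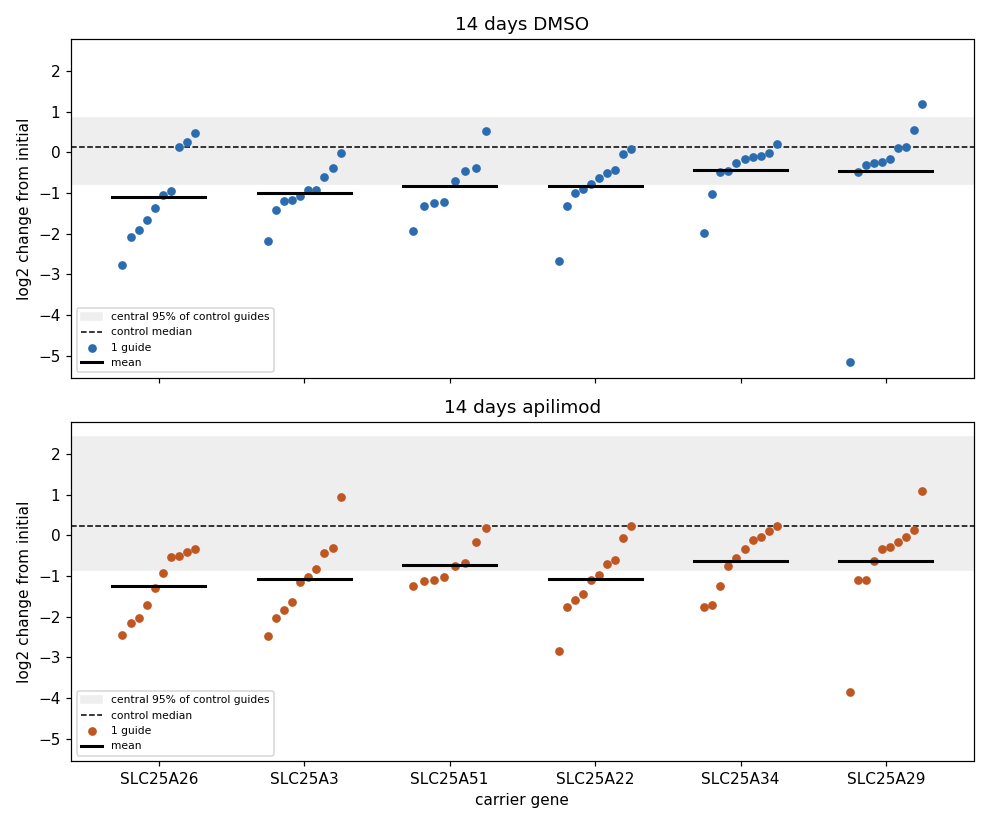
Log2 change from the initial population of each scored guide (points) of 5 of the 6 lowest carriers called in DMSO and of SLC25A29, in DMSO (top) and apilimod (bottom). Black bars are means, the dashed line is the control median and the grey band holds the central 95% of control guides, from -0.78 to 0.85 in DMSO and from -0.85 to 2.41 in apilimod. The guides of SLC25A29 lie near the band except for 1 at -5.17 and -3.86.

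Of the 4 carriers of carboxylates and carnitine, 2 were called lower in each arm, beside 18.9% and 29.0% of all genes. SLC25A10, which exchanges dicarboxylates such as malate and succinate for phosphate, summed to 7914 counts initially, 6146 in DMSO and 5131 in apilimod. Its scores were -0.35 ± 0.64 (exact adjusted p = 0.00626) and -0.67 ± 0.53 (exact adjusted p = 1.83e-05), and all 10 guides lay below the control median in apilimod against 8 in DMSO. SLC25A11, the oxoglutarate-malate carrier of the malate-aspartate shuttle, summed to 9373, 8516 and 7260 counts over 9 guides. Its guides ran from -0.82 to 0.37 in DMSO and from -1.33 to 0.05 in apilimod, for scores of -0.24 ± 0.41 (exact adjusted p = 0.0469) and -0.47 ± 0.42 (exact adjusted p = 0.000188). Its remaining guide, with 38, 0 and 0 counts, was below the minimum. With a minimum of 30, which admits it, the shift of SLC25A11 from the control median went from -0.38 to -0.89 in DMSO and from -0.69 to -1.18 in apilimod. The carnitine-acylcarnitine carrier SLC25A20 and the oxodicarboxylate carrier SLC25A21 scored 0.22 and 0.15 in DMSO and 0.17 and 0.28 in apilimod, without a call.

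Of the 4 iron and glutathione carriers 3 were called lower in apilimod and 0 in DMSO, beside 29.0% and 18.9% of all genes. The 3 calls ended with all guides as the reference, with exact adjusted p from 0.169 to 0.618, and none of the 4 was called in the direct comparison. SLC25A28 and SLC25A37 are the mitoferrins, which import iron, and SLC25A39 and its relative SLC25A40 are carriers of glutathione. SLC25A28 scored -0.14 ± 0.49 in DMSO (exact adjusted p = 0.187) and -0.59 ± 0.64 in apilimod (exact adjusted p = 0.000586). SLC25A37 scored -0.08 ± 0.66 (exact adjusted p = 0.702) and -0.36 ± 0.87 (exact adjusted p = 0.0201). Without 1 guide, of 687, 209 and 123 counts, its means became 0.11 and -0.12. SLC25A39, with 8848, 8908 and 8262 counts, scored -0.22 ± 0.55 (exact adjusted p = 0.122) and -0.43 ± 0.71 (exact adjusted p = 0.00912). SLC25A40 was the highest of all carriers in DMSO at 0.41 ± 0.31 and was at 0.31 ± 0.50 in apilimod, without a call in either.

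None of the 3 carriers related to uncoupling proteins, SLC25A14, SLC25A27 and SLC25A30, was called, with scores from -0.05 to 0.33 in DMSO and from -0.19 to 0.42 in apilimod. Of the 7 less characterised carriers, SLC25A34 and SLC25A46 were called lower in both arms, beside 18.9% and 29.0% of all genes. SLC25A34 summed to 7270, 6278 and 5504 counts, with guides from -1.99 to 0.21 in DMSO and from -1.77 to 0.23 in apilimod. It scored -0.44 ± 0.64 (exact adjusted p = 0.00258) and -0.62 ± 0.74 (exact adjusted p = 0.000762), and its DMSO mean was -0.27 without a guide of 632, 169 and 198 counts. SLC25A46, which unlike most of the family lies in the outer membrane and takes part in mitochondrial dynamics, scored -0.37 ± 0.37 (exact adjusted p = 0.000916) and -0.62 ± 0.77 (exact adjusted p = 0.000853). SLC25A35, SLC25A43, SLC25A45, SLC25A47 and SLC25A53 ran from -0.21 to 0.26 in DMSO and from -0.36 to 0.19 in apilimod and were not called.

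Apilimod and DMSO were then compared directly, on guide changes scaled in each arm so that the control median lay at 0 and the median of 30 nucleotide synthesis genes at -1. No carrier was called, 0 lower and 0 higher of 46, where 0.573% of all genes were called lower and 0.202% higher, which is 17 and 6 genes (36 and 1 without scaling of the arms). By the same exact test 1 carrier had an unadjusted p under 0.05, as had 10.5% of all genes. The carriers' unscaled log2 ratios of apilimod to DMSO had a median of -0.04, beside -0.01 over all genes, with 27 of 46 below 0. Each gene's difference was also given as z, its distance from the mean of all genes in SDs, and the carriers' z ran from -1.47 to 1.41 with 24 below 0 and 22 above. SLC25A1, the carrier left out, had a z of -4.74, the second lowest of 2969 genes, with scores of -0.17 in DMSO and -1.58 in apilimod and an exact adjusted p of 0.0137.

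The lowest z among the 46 belonged to the mitoferrin SLC25A28 (chr10:99610519-99622793, minus strand), at -1.47, rank 147 of 2969. Its 9 scored guides summed to 11290 counts initially, 11223 in DMSO and 7883 in apilimod, before scaling to library totals. The guides' log2 ratios of apilimod to DMSO ran from -0.86 to 0.05, with 8 of 9 below the control median, for a mean of -0.45 ± 0.27. The exact test gave p = 0.000926 and an adjusted p of 0.0859, which missed the threshold. Its remaining guide, with 55, 75 and 9 counts, was below the minimum of 100, and with that guide admitted by a minimum of 30 SLC25A28 was called (z = -2.22, exact adjusted p = 0.028). It was called as well without any minimum (exact adjusted p = 0.0249) and without scaling of the arms (exact adjusted p = 0.0399). Over all 10 alternatives its exact adjusted p ran from 0.0249 to 0.449.

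The next lowest were SLC25A18, SLC25A37 and SLC25A10, with z of -0.98, -0.95 and -0.91. SLC25A18 had a mean log2 ratio of -0.27 ± 0.37, and the scaled differences, on which the test ran, lay below the control median for 7 of 10 guides. SLC25A37, with 7537, 8109 and 6449 counts, had a ratio of -0.28 ± 0.53, with 6 of 10 scaled differences below. SLC25A10 had a ratio of -0.32 ± 0.52, with 8 of 10 scaled differences below. Without the guide farthest from the gene's median, the ratios of SLC25A18, SLC25A37 and SLC25A10 became -0.21, -0.36 and -0.23. The exact adjusted p of these 3 genes lay between 0.571 and 0.618, so that none of them passed the test. All 4 iron and glutathione carriers had mean ratios below 0, from -0.45 to -0.10, and none was called. Ratios below 0 were also held by 27 of the 46 carriers and 1532 of all 2969 genes.

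At the other end stood SLC25A17, SLC25A23, SLC25A2 and SLC25A51, with z of 1.41, 0.97, 0.89 and 0.81. SLC25A17, which moves coenzyme A, flavin and NAD across the peroxisomal membrane, summed to 10857, 10573 and 12844 counts and had a ratio of 0.41 ± 0.67, with 7 of 10 scaled differences above the control median. SLC25A23, an ATP-magnesium/phosphate carrier, went from 5671 to 6604 and 7647 counts at a ratio of 0.32 ± 0.66, which became 0.16 without a guide of 191, 203 and 683 counts. SLC25A2, an ornithine carrier, had 11354, 10484 and 10384 counts at a ratio of 0.24 ± 0.66, which became 0.05 without a guide of 155, 61 and 229 counts. SLC25A51 had a ratio of 0.10 ± 0.61, and -0.06 without a guide of 1389, 388 and 902 counts. The means of SLC25A23, SLC25A2 and SLC25A51 thus leaned on single guides. That of SLC25A17 became 0.27 without a guide of 470, 233 and 715 counts, and the median ratio of its guides was 0.37. For all these genes at the upper end the exact adjusted p lay between 0.575 and 0.842. Of the carriers called lower in both arms, z ran from -0.91 for SLC25A10 to 0.81 for SLC25A51, with 0.12 for SLC25A26, 0.24 for SLC25A3 and -0.44 for SLC25A22.

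**Figure D3:**
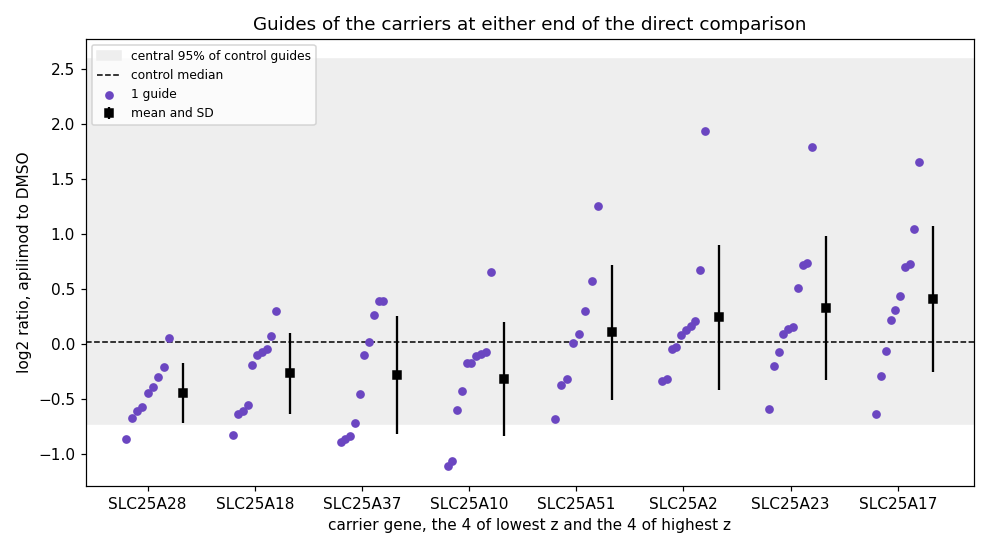
Log2 ratio of apilimod to DMSO of each scored guide (points) for the 4 carriers of lowest and the 4 of highest z, with the gene's mean and SD (squares and bars), the control median (dashed) and the central 95% of control guides (grey, -0.73 to 2.59). The guides of SLC25A28 run from -0.86 to 0.05 and those of SLC25A17 from -0.64 to 1.65, and neither gene was called.

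Scores were also read within sets of related sequence, some of which held like and some unlike values. SLC25A51 and SLC25A52 share 96.0% of residues, yet SLC25A51 was at -0.84 ± 0.75 in DMSO and SLC25A52, with 7256, 9430 and 9243 counts, at 0.35 ± 0.40. The glutamate carriers SLC25A22 and SLC25A18 share 66.0%, and the first was at -0.82 and the second at 0.04. The mitoferrins SLC25A28 and SLC25A37 share 67.2% and were at -0.14 and -0.08. The glutathione carriers SLC25A39 and SLC25A40 share 53.3% and were at -0.22 and 0.41. Differences within these sets were not tested, and guide sequences were not analysed here, so whether a guide of SLC25A51 also matches SLC25A52 was not tested.

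The 4 adenine nucleotide translocases share between 70.8% and 92.0% of residues and had small scores throughout, from -0.17 for SLC25A31 to 0.13 for SLC25A5 in DMSO. Within the ATP-magnesium/phosphate set SLC25A23, SLC25A24, SLC25A25 and SLC25A41, where identities ran from 48.9% to 68.0%, only SLC25A25 was called. The pairs SLC25A12 and SLC25A13 (77.5% identity), SLC25A15 and SLC25A2 (87.4%) and SLC25A33 and SLC25A36 (60.8%) held no called gene. Both dicarboxylate carriers SLC25A10 and SLC25A11, at 40.4% identity, were called lower in both arms. The annotation names 9 pseudogene loci after SLC25A5, 6 after SLC25A6 and 5 each after SLC25A15 and SLC25A51, and whether guides also cut such copies was not tested.

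**Figure D4:**
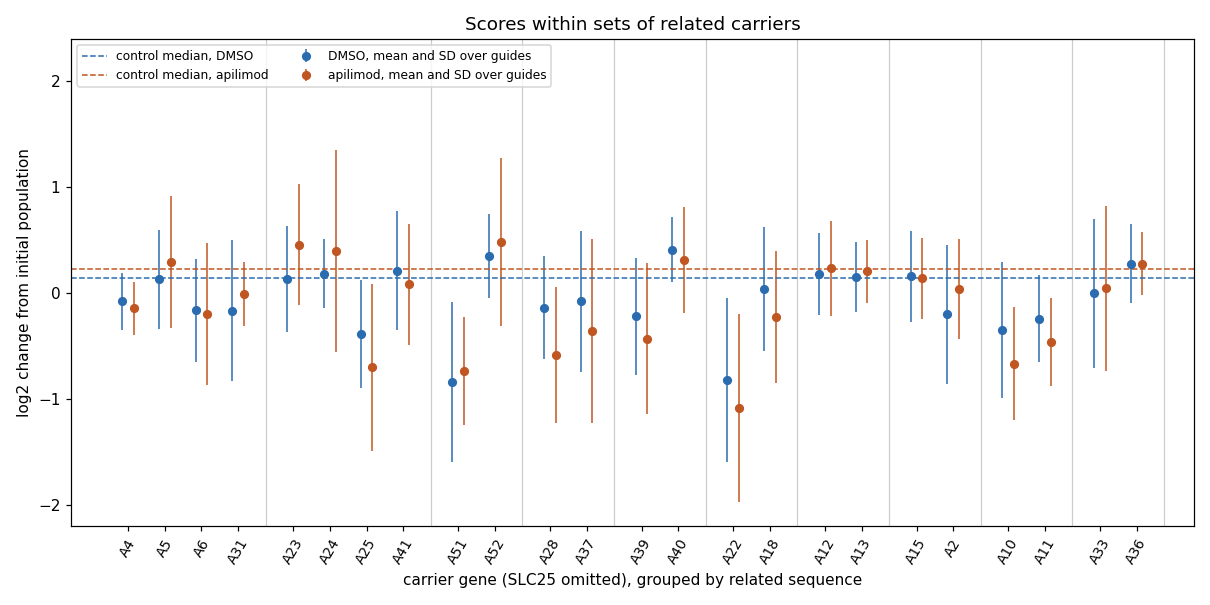
Scores of carriers grouped by related sequence, as the mean log2 change from the initial population with SD over guides, in DMSO (blue) and apilimod (orange), with the control medians as dashed lines. SLC25A51 and SLC25A22 have lower means than their relatives SLC25A52 and SLC25A18, while the translocases SLC25A4, SLC25A5, SLC25A6 and SLC25A31 lie between -0.20 and 0.29 in both arms.

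The 46 genes lie on 19 chromosomes, and their proteins, read from the annotated coding sequences, have 274 to 678 residues. The carrier signature was searched as proline, any residue, an acidic residue, any pair of residues and a basic residue. It was found 3 times in 25 carriers, more often in 3, and not at all in 4. Of those 4, SLC25A46 and SLC25A51 were called lower in DMSO, as were 14 of the 46 carriers and 18.9% of all genes. SLC25A52 and SLC25A53 were not called and scored 0.35 and 0.26 there. A missing match says only that these residues do not occur in that spacing.

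Genes that make, use or otherwise handle what the carriers move, and other mitochondrial transporters, were read beside them. Over all genes 18.9% were called lower in DMSO and 29.0% in apilimod. Of 4 S-adenosylmethionine genes, 1 and 2 were called lower, with AHCY, which clears S-adenosylhomocysteine, at -1.70 and -1.98, against -1.09 and -1.24 for SLC25A26. Of 8 folate and flavin genes, 3 and 6 were called lower. FPGS, which adds glutamates to folate, was at -1.51 and -2.06, and RFK, riboflavin kinase, at -1.46 and -2.15, against -0.16 and -0.18 for SLC25A32. These 3 enzymes were named after their values were seen, and other members of both lists lay above the carrier, such as MAT2A, which makes S-adenosylmethionine, at -0.72 and -0.83 and MTHFD1L, a mitochondrial folate enzyme, at -0.07 and 0.19.

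Of the 4 malate-aspartate shuttle enzymes 1 was called lower in DMSO and 2 in apilimod, beside 18.9% and 29.0% of all genes. MDH2, mitochondrial malate dehydrogenase, was the lowest, at -0.75 ± 0.61 and -1.84 ± 2.22. The other enzymes of that list lay between -0.30 and 0.01 in DMSO and between -0.17 and 0.08 in apilimod. Of the 4 glutathione synthesis genes 3 were called lower in each arm. GCLC, the catalytic subunit of the first enzyme, was at -0.64 ± 0.40 and -0.51 ± 0.83. None of the 5 carnitine shuttle genes was called, as SLC25A20 was not. Among 17 other mitochondrial transporters 2 were called lower in DMSO and 4 in apilimod, with the sideroflexin SFXN4 at -0.57 ± 0.84 and -1.07 ± 2.04. MDH2, GCLC and SFXN4 were not named in advance. In the direct comparison 0 genes of these lists were called.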

How the data were processed

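Per the labels and the study's methods, the authors amplified guides from genomic DNA of 3 pools of MIA PaCa-2 cells, sequenced them and deposited whole-number counts per guide, not normalized. The submitters' processing notes name bcl2fastq, cutadapt 4.1, Bowtie2 2.4.5, MAGeCK 0.5.9.5 and hg38. The 3 libraries held 24695476 to 26276517 counts. From these counts, guides with at least 100 initial counts and genes with at least 6 such guides were kept, a pseudocount of 1 was added, and log2 changes were taken after scaling to library totals. With 1 library per group no count model leaves residual degrees of freedom. Each gene's guides were therefore ranked against 487 control guides (exact rank-sum test, two-sided), with Benjamini-Hochberg adjustment over 2969 genes, called at 0.05 (Python 3.11.15, SciPy 1.17.1). The test was checked on simulated data whose guides drifted as the control guides do. That check cannot show how the calls behave where unchanged genes differ from the controls. Every called carrier is named, except 1 carrier that is counted but, like some genes of the other lists, not reported here. Counts and guide ranges are given for the 6 lowest and 3 highest called scores of each arm, and the 4 lowest and 4 highest z are named, as are sets of related carriers. Gene positions and proteins come from GENCODE release 44 (hg38), aligned with Biopython 1.88. The carriers, gene lists and tests were chosen with earlier results of these data known.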

Additional observations from a re-analysis of the deposited data

How the results depend on the processing

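With 1 library per group, no library could be left out and nothing here measures the spread between cultures. No paired analysis was possible because each group holds 1 library. Neither the scores of called carriers nor the 8 extreme z changed sign under the alternatives of filter, pseudocount, scaling or reference. Of the counts of carriers, those called lower in apilimod against DMSO moved from 0 to 1, SLC25A28, with a minimum of 30 initial counts, with no minimum and without scaling of the arms. Those at least 1 log2 unit below the control median in apilimod moved from 4 to 7 with no minimum. With all guides as the null, 4 carriers in place of 14 were called lower in DMSO and 5 in place of 18 in apilimod. That null also moved the calls over all genes, from 560 lower and 25 higher to 227 and 50 in DMSO, from 862 and 7 to 229 and 79 in apilimod, and from 17 and 6 to 7 and 6 between the arms. Between the arms, the 17 lower and 6 higher genes became 8 and 4 with a minimum of 200, 30 and 1 with a minimum of 300, 36 and 1 without scaling, 19 and 4 with a minimum of 30, 21 and 4 with no minimum, 19 and 2 with a pseudocount of 10, and 20 and 2 with the median over guides. The cause of these moves was not tested. A minimum of 300 left 45 carriers scored. The table of the whole series held the same counts as the single libraries.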
